A study of Homo sapiens with 12 samples.

Results

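The genes that carry nutrient signals to mTORC1 were followed in A375 cells under MAPK inhibition and under glutamine depletion. SESN1, SESN3, DEPDC5, NPRL2, NPRL3, RRAGC, RRAGD, FLCN, FNIP1 and FNIP2 were taken by their symbols from the count table, where all 10 members were found among 44659 genes, each on a single row. A375, a widely used line of human melanoma cells with a BRAF mutation, gave every library and was grown in DMEM with serum. For the MAPKi group, fresh medium held 500 nM vemurafenib, which inhibits BRAF, together with 500 nM cobimetinib, which inhibits MEK, and the DMSO group was its control. For the Gln-depleted group the medium was free of glutamine, and the CTRL group of the same experiment received control medium, the growth medium having 2 mM glutamine. Each group had 3 libraries, and all cells were harvested after 24 h. The labels describe RNA of a cytoplasmic fraction, from which ribosomal RNA was depleted, whereas the RNA-seq methods of the paper name total RNA. The labels do not say that replicates were separate cultures, so the p-values measure the spread between these libraries, which may in part be technical.

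mTORC1 is a protein kinase that promotes growth when amino acids are available, and it is recruited to the lysosome by Rag GTPases. These act as pairs of RagA or RagB with RagC or RagD. GATOR1, made of DEPDC5, NPRL2 and NPRL3, inactivates RagA and RagB, and is itself held in check by GATOR2. Sestrins can bind GATOR2 and so favour inhibition of mTORC1, and leucine releases the best studied of them. Folliculin, encoded by FLCN, works in a complex with FNIP1 or FNIP2 and activates mTORC1 signalling through RagC and RagD. It also controls whether TFEB and its relative TFE3 stay in the cytoplasm. Strictly, most of the 10 genes do not encode sensors but the machinery that passes the signal on.

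Relatives of TFEB bind E-boxes of the sequence CACGTG, so the promoters of the members are shown where they hold these letters. RefSeq promoter windows of 300 bases (250 before and 50 after the start, GRCh38.p14) were found for 9 members, and RRAGD had no entry. Among their 14 windows, 3 contained CACGTG, those of RRAGC, FNIP1 and NPRL3, against 7.26% of all 35116 windows searched. The motif reads the same on both strands. The following stretches lie upstream of the start on the minus strand, 5′ to 3′, with the motif in capitals.
RRAGC, chr1:38859852-38859911, motif 112 bases before the start: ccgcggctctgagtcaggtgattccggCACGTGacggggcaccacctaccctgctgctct
FNIP1, chr5:131797160-131797219, motif 175 bases before the start: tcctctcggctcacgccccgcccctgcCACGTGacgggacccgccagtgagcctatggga
FNIP1, chr5:131797079-131797138, motif 94 bases before the start: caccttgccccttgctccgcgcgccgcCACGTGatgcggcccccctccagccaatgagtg
In NPRL3 the motif lay downstream of the start. The windows of FNIP2 and FLCN did not hold these letters, and a match in a promoter is a description of its sequence only.

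The deposited table held raw reads per gene, from 31056296 to 40071368 per library with a median of 35748567. Chi-square per degree of freedom between replicates went from 4.74 to 15.6 in the MAPKi experiment and from 39.6 to 191 in the glutamine experiment, so replicates differed by more than sampling noise, and the spread was wider in the latter. Replicate 1 of both groups of the glutamine experiment belongs to another experimental batch than replicates 2 and 3 according to the labels. Values with the replicate number as a term, called the replicate block, are given beside the results of members and the list counts that it moved. As checks of the treatments, all 11 tested MAPK pathway target genes were downregulated with MAPKi and all 10 amino acid response genes were higher with glutamine depletion. Both lists also moved in the other experiment. With glutamine depletion 5 of 12 MAPK targets were higher and 0 lower, against 9.47% and 8.44% of all genes. With the replicate block 11 were higher, against 25.2% of all genes. IER3, among the 12, has 5 further rows marked as copies, so that its level is uncertain. With MAPKi 4 amino acid response genes were higher and 6 lower, against 38.4% and 39.8% of all genes. Of 8 markers of keratinocytes, endothelial cells and leukocytes, at least 5 had at most 3 reads in any library of each group, and the list summed to between 2.64 and 9.89 CPM (counts per normalized library total). KRT5 and CD3E had 0 reads in every library, and VWF was the most abundant, with from 76.9 to 315 normalized counts. Melanocyte lineage markers were detected in all libraries, and their sum was from 9450 to 11900 CPM with MAPKi, from 1640 to 1730 with DMSO, from 787 to 851 with glutamine depletion and from 1190 to 1470 in CTRL libraries. With MAPKi most of the sum was DCT, with 319908, 242706 and 253270 normalized counts against 8496, 5713 and 6992 with DMSO. Of the 8 markers, 6 were higher and 1 was lower, against 38.4% and 39.8% of all genes. S100B fell by 2.14 on the log2 scale, and S100A1 did not pass the test (0.10, adjusted p = 0.205). With glutamine depletion 2 of the 8 markers were lower and 0 higher, against 8.44% and 9.47% of all genes, and 1 was lower with DESeq2. With the replicate block 6 were lower, against 23.8% of all genes. The part of these shifts in the changes of the members was not tested.

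With MAPKi, all 10 members changed, and 8 of them rose. FNIP2 stood out with a mean of 7628 normalized counts against 1758 with DMSO, and RRAGD came next, whereas NPRL2 and NPRL3 of GATOR1 fell. As the libraries are of bulk RNA, a lower level in each cell and fewer cells with the mRNA cannot be told apart. A gene was called higher or lower when edgeR's quasi-likelihood test against no change gave an adjusted p of at most 0.05, and up- or downregulated when the test against a 1.5-fold change did, the limit used in the study. By these rules 8 members were higher, 2 were lower, 2 were upregulated and 0 were downregulated. DESeq2 and the unadjusted p-values gave the same 4 counts. The treatment moved much of the transcriptome, since 38.4% of the 12601 genes tested were higher, 39.8% were lower and 78.3% moved in either direction, while 16.7% were upregulated and 18.8% were downregulated. The MAPKi and DMSO libraries did not overlap for any of the 10 members, 8 of which were higher and 2 lower, and over all tested genes this held for 39.6% in the higher and 41.1% in the lower direction. In a fit that pooled the spread of all 12 libraries, SESN1, SESN3, NPRL2, NPRL3 and FNIP1 no longer passed (adjusted p from 0.0508 to 0.526). The median log2 fold change of the members was 0.40 and that of all tested genes was -0.01.

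With glutamine depletion, 3 members fell, namely SESN3, SESN1 and RRAGD, and 0 passed the test in the higher direction, also at an unadjusted p under 0.05 and with DESeq2. Among the 12520 genes tested, 9.47% were higher and 8.44% were lower. In the test against 1.5-fold 0 of the 10 members passed in either direction, compared with 3.48% of genes upregulated and 2.1% downregulated, although at an unadjusted p under 0.05 3 passed downwards with edgeR and 2 with DESeq2. With the replicate block, 5 members were lower, 1 was higher and 3 were downregulated, while over all genes 23.8% were lower, 25.2% were higher, 7.84% were downregulated and 8.84% were upregulated. Each of the 10 members moved in a single direction in 3 of 3 pairs of libraries, 7 of them lower and 3 higher, and this held for 34.7% of genes in the lower and 36.5% in the higher direction. Groups did not overlap for 3 members that were lower, against 19.8% of all genes, and for 1 that was higher, against 20.1%. The median log2 fold change was -0.36 over the members and 0.00 over all tested genes.

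**Figure D1:**
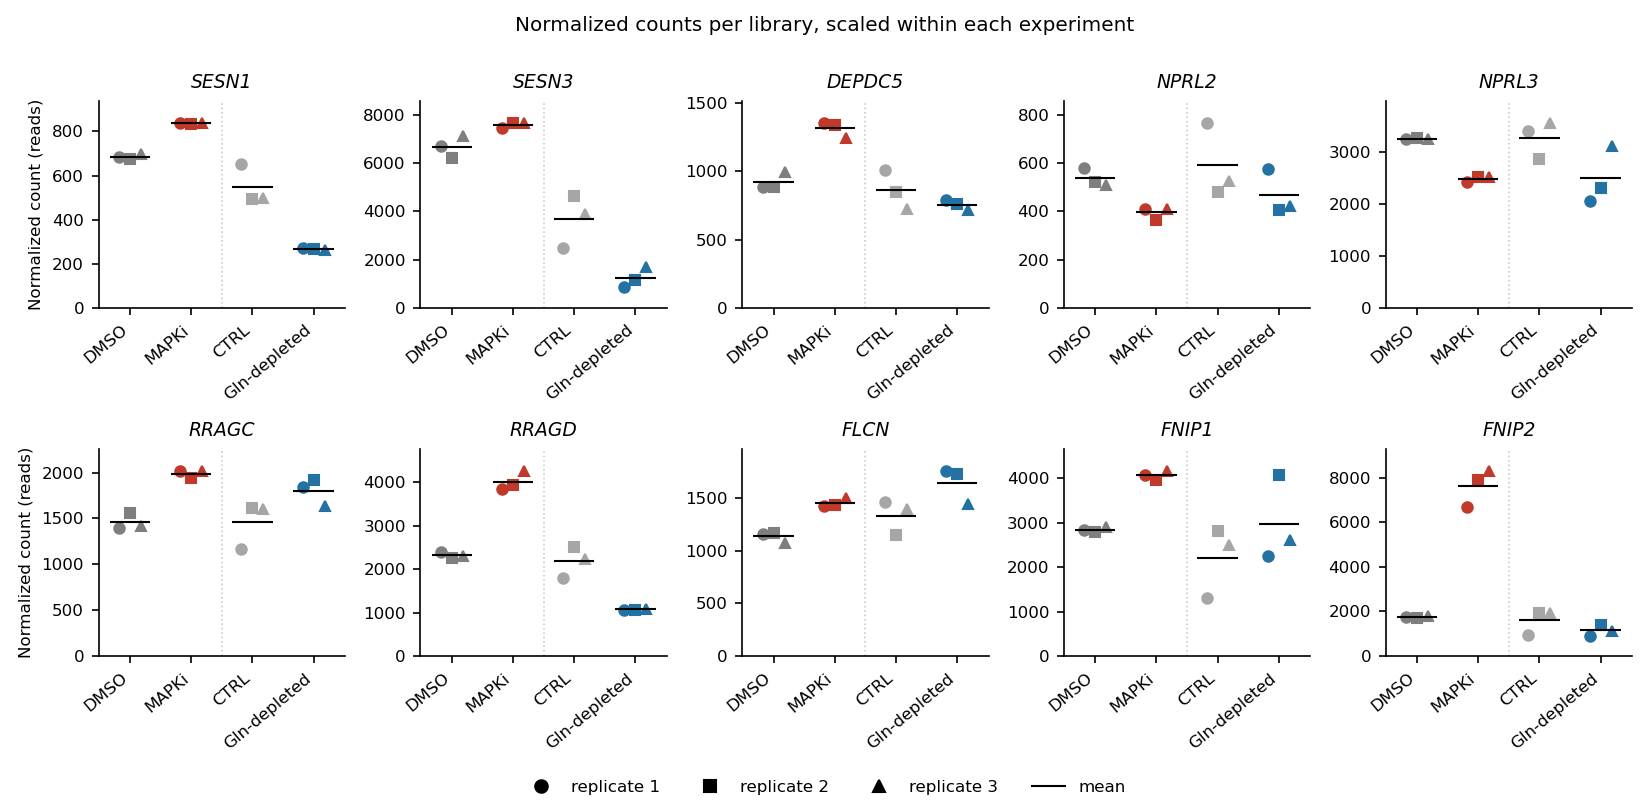
Normalized counts of the 10 members in each library, with counts scaled within each experiment (y axis, linear from 0) and 4 groups on the x axis; symbols mark replicates 1 to 3 and lines the group means. FNIP2 lies between 6671 and 8303 in MAPKi libraries and between 1710 and 1791 in DMSO libraries, and SESN1 between 262 and 271 in Gln-depleted libraries against 494 to 652 in CTRL libraries.

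Both sestrins rose slightly with MAPKi and fell without glutamine. SESN1, on chromosome 6 (GRCh38, 108984309 to 109094846, minus strand), had 838, 835 and 839 normalized counts in the MAPKi libraries and 684, 674 and 698 in the DMSO libraries. All MAPKi values lay above all DMSO values, with a log2 fold change of 0.29 (standard error 0.05, adjusted p = 0.000478). In the Gln-depleted libraries it had 271, 265 and 262 normalized counts, and in CTRL libraries 652, 494 and 499. The Gln-depleted libraries differed little among themselves and were at a ratio of 0.485 to CTRL, a log2 fold change of -1.04 (standard error 0.21, adjusted p = 0.0153). With the replicate block SESN1 was downregulated, with a log2 fold change of -1.03 and an adjusted p of 0.0257 against 1.5-fold. Within experimental batch 2 its log2 fold change was -0.91 (adjusted p = 0.0124), and in the single pair of libraries of batch 1 it was -1.27.

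SESN3, on chromosome 11 (95165513 to 95232541, minus strand), was the more abundant sestrin. It had 7438, 7666 and 7668 normalized counts with MAPKi, and 6697, 6228 and 7106 with DMSO. This was the smallest change among the members, by 0.18 on the log2 scale (standard error 0.05, adjusted p = 0.0106), and it came to 0.28 with a correction for GC content. Without glutamine it had 879, 1158 and 1712 normalized counts, against 2464, 4643 and 3906 in CTRL libraries. The highest Gln-depleted library stayed under the lowest CTRL library, and each group spread more than for SESN1, replicate 1 being the lowest in both. The ratio of means as fitted was 0.34, a log2 fold change of -1.56 (standard error 0.32, adjusted p = 0.0153), which was the largest change of a member in this experiment. Within pairs of replicate numbers the log2 differences were -1.49, -2.0 and -1.19. With the replicate block SESN3 was downregulated (adjusted p = 0.00232 against 1.5-fold), and within the 4 libraries of experimental batch 2 its log2 fold change was -1.58 (adjusted p = 0.00469).

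GATOR1 did not move as a unit with MAPKi. DEPDC5, its largest subunit, lies on chromosome 22 (31753867 to 31908033, plus strand) and had 1356, 1343 and 1246 normalized counts with MAPKi against 886, 886 and 995 with DMSO. It rose by 0.51 on the log2 scale (standard error 0.06, adjusted p = 4.19e-05). NPRL2, on chromosome 3 (50347330 to 50350826, minus strand), had 412, 366 and 409 normalized counts with MAPKi and 581, 521 and 511 with DMSO. NPRL2 fell by 0.44 on the log2 scale (standard error 0.08, adjusted p = 0.000716). NPRL3, on chromosome 16 (84271 to 138677, minus strand), fell too, from 3249, 3271 and 3240 normalized counts with DMSO to 2410, 2517 and 2521 with MAPKi. Its DMSO libraries were nearly equal, and the change came to -0.39 on the log2 scale (standard error 0.04, adjusted p = 9.23e-06). The mRNAs of the 3 subunits were thus on different sides of their controls, DEPDC5 above and its partners below. Exons annotated for other genes overlap 10.4% of the exon bases of DEPDC5 and 14.1% of those of NPRL3, the latter in part with MPG on the opposite strand, and it is not stated whether the counting used strand.

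Without glutamine the 3 subunits had lower means than in CTRL medium, but none passed the test. DEPDC5 had 788, 765 and 716 normalized counts against 1013, 849 and 724, and the groups overlapped (log2 fold change -0.19, 95% confidence interval -0.65 to 0.27, adjusted p = 0.539). NPRL2 had 574, 407 and 422 against 767, 478 and 526, with the values of replicate 1 highest in both groups (log2 fold change -0.34, interval -0.93 to 0.26, adjusted p = 0.389). For NPRL3, the values were 2062, 2302 and 3112 against 3394, 2863 and 3553, and the groups overlapped through Gln-depleted replicate 3 (log2 fold change -0.39, adjusted p = 0.232). With each library left out, the log2 fold changes were from -0.30 to -0.06 for DEPDC5, from -0.51 to -0.10 for NPRL2 and from -0.61 to -0.27 for NPRL3, and those of DEPDC5 and NPRL2 were closest to 0 without CTRL replicate 1. NPRL3 was lower with the replicate block (-0.41, adjusted p = 0.04), though not when a GC-content correction was added to the block (adjusted p = 0.105).

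The genes of RagC and RagD, which take the same place in the Rag pair, both rose with MAPKi, and RRAGD fell without glutamine. RRAGC, on chromosome 1 (38838198 to 38859772, minus strand), had 2013, 1939 and 2017 normalized counts with MAPKi and 1401, 1558 and 1423 with DMSO. This rise was of 0.45 on the log2 scale (standard error 0.05, adjusted p = 2.3e-05). In the Gln-depleted libraries RRAGC had 1841, 1923 and 1637 normalized counts, and in CTRL libraries 1169, 1617 and 1601. The groups did not overlap, but the lowest Gln-depleted and the highest CTRL library were close together, and the test was not passed (log2 fold change 0.30, interval -0.16 to 0.76, adjusted p = 0.325, and 0.11 with the replicate block). A long non-coding RNA on the same strand shares 23.1% of the exon bases of RRAGC.

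RRAGD, on chromosome 6 (89364616 to 89412273, minus strand), is known as a target gene of TFEB and its relatives. Its normalized counts were 3834, 3930 and 4257 with MAPKi and 2388, 2262 and 2292 with DMSO. RRAGD was upregulated 1.73-fold, with a log2 fold change of 0.79 (standard error 0.05, adjusted p = 3.64e-07 against no change and 0.000948 against 1.5-fold). Without glutamine the counts were 1067, 1054 and 1091, against 1785, 2501 and 2241 in CTRL libraries. Like SESN1, RRAGD was nearly equal in the Gln-depleted libraries and more spread in the CTRL libraries, with a log2 fold change of -1.02 (standard error 0.20, adjusted p = 0.0121). The replicate block gave -1.01 and a call as downregulated (adjusted p = 0.0154 against 1.5-fold). Within experimental batch 2 the value was -1.14 (adjusted p = 0.00328), and in the single pair of libraries of batch 1 it was -0.74.

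The calls of the sestrins and RRAGD were lost without particular libraries. Without Gln-depleted replicate 2, adjusted p-values were 0.0638 for SESN1, 0.069 for SESN3 and 0.0569 for RRAGD, so that 0 members were lower, and over all genes 278 were lower in place of 1057. Without CTRL replicate 2 they were 0.0582 for SESN3 and 0.0547 for RRAGD, and 1 member and 396 genes were lower. The log2 fold changes themselves stayed between -1.11 and -0.90 for SESN1, between -1.88 and -1.35 for SESN3 and between -1.15 and -0.91 for RRAGD when each library was left out.

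In the folliculin complex, FNIP2 changed most with MAPKi. FLCN, on chromosome 17 (17212212 to 17237188, minus strand), had 1420, 1436 and 1502 normalized counts with MAPKi and 1158, 1171 and 1078 with DMSO. Its rise was modest, 0.36 on the log2 scale (standard error 0.05, adjusted p = 0.000132), and a protein-coding gene annotated on the same strand shares 11.9% of its exon bases. FNIP1, on chromosome 5 (131641714 to 131797017, minus strand), had 4079, 3951 and 4163 normalized counts with MAPKi against 2834, 2784 and 2892. FNIP1 rose by 0.52 on the log2 scale (standard error 0.04, adjusted p = 1.73e-06). FNIP2, on chromosome 4 (158769026 to 158908050, plus strand), is the other partner of folliculin. It had 6671, 7911 and 8303 normalized counts with MAPKi and 1772, 1710 and 1791 with DMSO, so that its lowest treated library was far above its highest control library. The rise was 4.34-fold, a log2 fold change of 2.12 (standard error 0.08, adjusted p = 1.03e-08 against no change and 4.41e-08 against 1.5-fold), and it was from 2.05 to 2.21 when each library was left out.

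Without glutamine, no gene of the folliculin complex passed the main test. FLCN had 1757, 1731 and 1440 normalized counts against 1465, 1145 and 1392 (log2 fold change 0.30, interval -0.14 to 0.74, adjusted p = 0.302), and it was higher only when the replicate block and a GC-content correction were used together (adjusted p = 0.0451). FNIP1 had 2240, 4065 and 2606 against 1314, 2808 and 2508, and its libraries followed their replicate numbers. Its log2 fold change was 0.43 (interval -0.34 to 1.19, adjusted p = 0.395), and 0.45 with the replicate block, where it was called higher (adjusted p = 0.0423), though not with the GC-content correction added (adjusted p = 0.14). FNIP2 went the other way, with 912, 1396 and 1140 normalized counts against 961, 1937 and 1923. The log2 fold change of FNIP2 was -0.48 (interval -1.18 to 0.21, adjusted p = 0.292), it was lower with the replicate block (-0.44, adjusted p = 0.043) and within experimental batch 2 (-0.61, adjusted p = 0.026), and the pairs gave -0.08, -0.47 and -0.75. With each library left out, the log2 fold change was from 0.13 (without Gln-depleted replicate 2) to 0.64 for FNIP1 and from -0.75 (without CTRL replicate 1) to -0.33 for FNIP2.

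**Figure D2:**
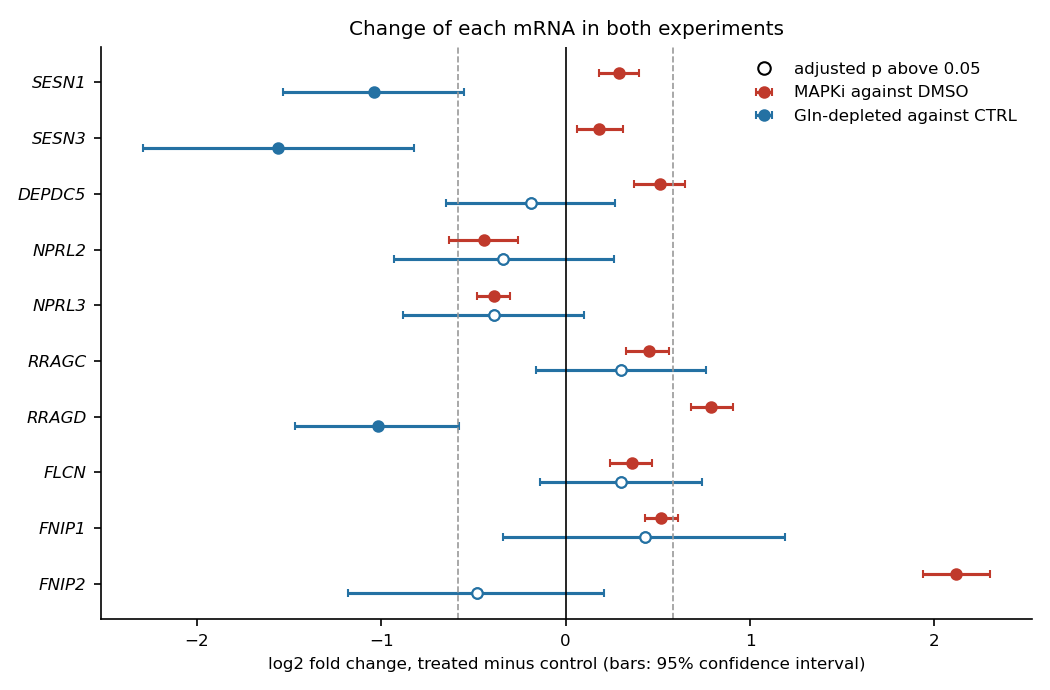
Log2 fold change of each member (x axis, treated minus control) with 95% confidence intervals, for the MAPKi experiment (red) and the glutamine experiment (blue); open points have an adjusted p above 0.05 and dashed lines mark a 1.5-fold change in each direction. FNIP2 is at 2.12 with MAPKi, and SESN3, SESN1 and RRAGD are at -1.56, -1.04 and -1.02 without glutamine, where the intervals are wider.

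Because both experiments were set up with their own controls, the difference between the 2 responses could be tested over the 12 libraries. A drug and a change of medium are not doses of one treatment, and the experiments were sequenced in different batches, so that batch and treatment cannot be told apart here. The libraries were normalized together for this test, and a difference can depart slightly from that of the separate estimates. Responses differed for 5 of 10 members, while this was so for 40.5% of the 12633 genes tested, and for the same number of members with the replicate block, where 61.1% of genes differed. FNIP2 differed most, by 2.65 on the log2 scale, MAPKi minus glutamine depletion (95% confidence interval 1.93 to 3.38, adjusted p = 7.92e-05). RRAGD differed by 1.87 (1.49 to 2.25, adjusted p = 9.75e-06), SESN3 by 1.79 (1.05 to 2.54, adjusted p = 0.00149) and SESN1 by 1.39 (0.98 to 1.80, adjusted p = 0.000142). DEPDC5 differed by 0.76 (0.33 to 1.19, adjusted p = 0.00857). For the other members the test found no difference, with intervals from -0.66 to 0.56 for NPRL2, from -0.40 to 0.51 for NPRL3, from -0.20 to 0.60 for RRAGC, from -0.27 to 0.49 for FLCN and from -0.64 to 0.93 for FNIP1, which leave room for differences of that size.

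Related genes were compared by the ratio of their reads within a library, which does not depend on how libraries are scaled. RRAGD had 1.90, 2.03 and 2.11 reads per read of RRAGC with MAPKi and 1.70, 1.45 and 1.61 with DMSO. Without glutamine the ratio was 0.58, 0.548 and 0.666, against 1.53, 1.55 and 1.40 in CTRL libraries, so that RRAGC had more reads than RRAGD in these 3 libraries alone. The difference of the mean log2 ratios, treated minus control, was 0.34 with MAPKi and -1.32 without glutamine, and in both experiments the groups did not overlap.

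FNIP2 had 1.64, 2.00 and 1.99 reads per read of FNIP1 with MAPKi and 0.625, 0.614 and 0.619 with DMSO, a log2 difference of 1.59. With glutamine depletion the ratio was 0.407, 0.343 and 0.438, against 0.731, 0.690 and 0.767, a log2 difference of -0.89. FNIP2 thus had more reads than FNIP1 in the MAPKi libraries and fewer in all the others. The ratio of SESN3 to SESN1 moved less, by -0.10 with MAPKi (8.88, 9.18 and 9.14 against 9.79, 9.24 and 10.2) and by -0.53 without glutamine, where the groups overlapped. A two-sided exact permutation test gave p = 0.1 for each ratio, the smallest it allows with 3 against 3 libraries, apart from SESN3 to SESN1 without glutamine (p = 0.3). Over the 6 relations compared, no p under 0.05 could be reached.

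**Figure D3:**
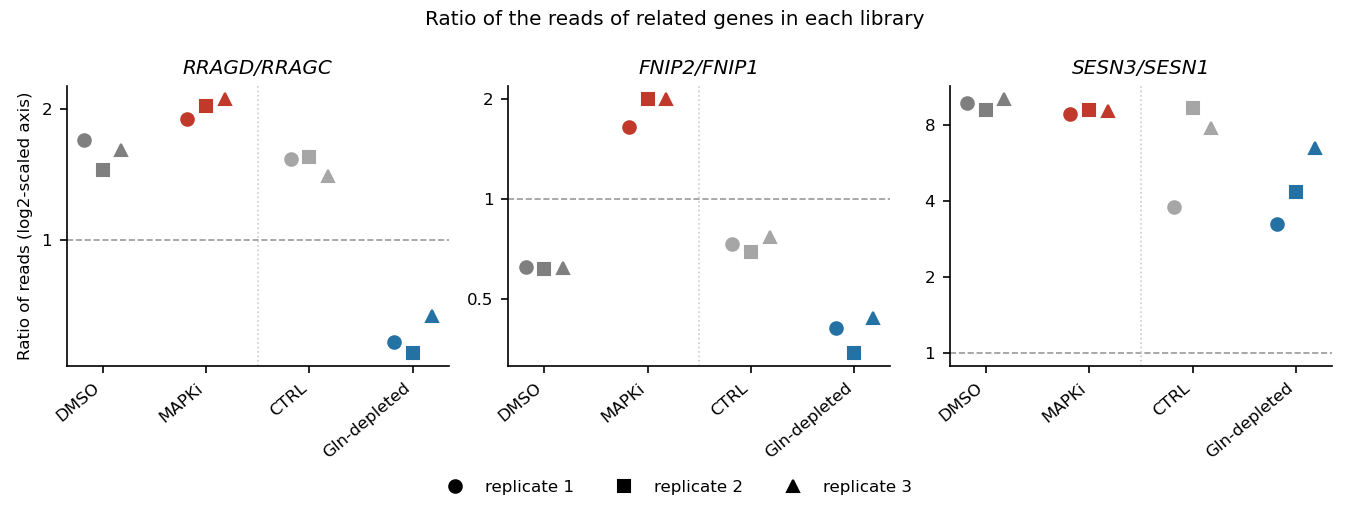
Ratio of the reads of 2 related genes in each library (y axis, log2 scale), by group, with symbols for replicates 1 to 3 and a dashed line where both genes have the same number of reads. Gln-depleted libraries are from 0.548 to 0.666 for RRAGD to RRAGC, and MAPKi libraries are from 1.64 to 2.00 for FNIP2 to FNIP1.

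Levels of different genes were compared per length, in CPM divided by exon length in kb, with exon lengths from the GENCODE annotation, which may differ from the one used for counting. In DMSO libraries SESN3 was the highest member at 19.2 ± 1.26 (SD, n = 3), followed by NPRL3 at 15.4 ± 0.0777, RRAGD at 13.8 ± 0.397, FNIP1 at 10.9 ± 0.210 and RRAGC at 8.66 ± 0.504. FNIP2 at 4.86 ± 0.118 and NPRL2 at 4.78 ± 0.339 could not be ordered, since their libraries overlapped, and FLCN at 3.52 ± 0.157, SESN1 at 2.86 ± 0.0502 and DEPDC5 at 1.56 ± 0.107 came last. With MAPKi the 3 highest means were those of RRAGD at 23.9 ± 1.33, SESN3 at 21.8 ± 0.378 and FNIP2 at 21.1 ± 2.35. All RRAGD libraries lay above those of SESN3, whereas FNIP2, from 18.4 to 22.9, overlapped both and could not be ordered against them. By its mean FNIP2 ranked 6 of 10 with DMSO and 3 with MAPKi. DEPDC5 remained last at 2.23 ± 0.102, preceded by SESN1 at 3.49 ± 0.00737 and NPRL2 at 3.52 ± 0.227, which overlapped.

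In CTRL libraries neighbours in the order overlapped throughout the first 8 members, from NPRL3 at 14.7 ± 1.62 (SD, n = 3) and RRAGD at 12.3 ± 2.06 to FLCN at 3.94 ± 0.494. Without glutamine NPRL3 at 11.2 ± 2.47, FNIP1 at 10.9 ± 3.53 and RRAGC at 10.2 ± 0.832 overlapped at the top, and RRAGD followed at 6.07 ± 0.105, below all libraries of those 3 genes. SESN3 ranked 3 in CTRL libraries at 10.0 ± 3.02 and 7 without glutamine at 3.41 ± 1.16. SESN1 was the lowest member without glutamine at 1.06 ± 0.0167, under DEPDC5 at 1.22 ± 0.0591, whereas in CTRL libraries DEPDC5 was the lowest at 1.39 ± 0.233.

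Of the rest of the amino acid sensing arm, 21 genes, 20 were tested. With MAPKi 10 were higher and 7 lower, compared with 38.4% and 39.8% of all genes. Of the 20, 3 were upregulated and 2 downregulated, compared with 16.7% and 18.8%, and the median log2 fold change was 0.11. SLC38A9, a lysosomal arginine sensor, had 1139, 997 and 962 normalized counts against 504, 405 and 500, a log2 fold change of 1.14 (adjusted p = 3.08e-06). RRAGB, the gene of RagB, was higher by 0.84 (adjusted p = 6.22e-05). Both downregulated genes encode GATOR2 subunits that are also nuclear pore proteins, SEH1L at -1.22 (adjusted p = 1.5e-07) and SEC13 at -0.87 (adjusted p = 1.64e-07). Among the other GATOR2 genes, MIOS and WDR59 fell by 0.34 and 0.39 on the log2 scale, and WDR24 was at 0.01 (adjusted p = 0.888). Ragulator, which anchors the Rag GTPases, had LAMTOR1 at 0.61 and LAMTOR3 at 0.52, and LAMTOR5 did not pass the test at 0.05 (adjusted p = 0.422).

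Without glutamine 1 of these 20 genes was higher and 0 lower with edgeR, against 9.47% and 8.44% of all genes. The counts were 2 and 2 at an unadjusted p under 0.05, and 1 and 1 with DESeq2. The higher gene with edgeR was SLC38A9, with 982, 1207 and 793 normalized counts against 603, 631 and 451 (log2 fold change 0.83, adjusted p = 0.046). With the replicate block 5 were higher, among them LAMTOR3 at 0.62 (adjusted p = 0.00958), and 5 were lower, among them CASTOR2 at -0.75 (adjusted p = 0.00202), while 25.2% of all genes were higher and 23.8% lower. The row of SESN2, the remaining sestrin gene, held at most 1 read in every library and was not tested. A row marked as a further copy of SESN2 had 1771, 1211 and 72 reads in Gln-depleted libraries and 33, 18 and 5 in CTRL libraries, each Gln-depleted library being above each CTRL library. It had 9, 5 and 6 reads with MAPKi and 8, 7 and 38 with DMSO. Since the table does not say how reads were divided between the rows, the level of SESN2 is uncertain.

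Among 9 genes of mTORC1, its activator RHEB and the TSC complex that inhibits RHEB, 6 were higher and 1 was lower with MAPKi. Over all genes 38.4% were higher and 39.8% lower, and the median log2 fold change of the 9 genes was 0.17. RHEB fell by 0.95 on the log2 scale (adjusted p = 6.94e-08), from 4002, 4230 and 4107 normalized counts with DMSO to 2082, 2043 and 2237. TSC2 and TBC1D7 of the TSC complex rose by 0.85 and 1.05 (adjusted p = 9.61e-08 and 0.000365), and MTOR by 0.53 (adjusted p = 2.55e-06). Without glutamine 1 gene was higher with edgeR, TSC2 at 0.86 (adjusted p = 0.0207), and 0 were lower. Over all genes 9.47% were higher and 8.44% lower. At an unadjusted p under 0.05 and with DESeq2, 2 of the 9 genes were higher and 0 lower. With the replicate block 5 were higher, against 25.2% of all genes. RHEB had a log2 fold change of 0.27 without glutamine in the main fit (adjusted p = 0.306).

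Genes known to act on the members, or to share regulators with them, were counted in lists of their own. TFEB and MITF were tested among the 4 genes of the MiT/TFE factors, since TFE3 and TFEC had at most 5 reads in any library. TFEB had 587, 583 and 566 normalized counts with MAPKi against 190, 195 and 221 (log2 fold change 1.52, adjusted p = 1.12e-07), and without glutamine 89.8, 69.2 and 46.1 against 163, 100.0 and 106 (-0.85, adjusted p = 0.14, and 0.0276 with the replicate block). MITF, the melanocyte member of the family, was higher by 0.77 with MAPKi (adjusted p = 1.38e-07). In Gln-depleted libraries MITF had 2446, 1613 and 2304 normalized counts against 6964, 12800 and 12518, a log2 fold change of -2.34 (adjusted p = 0.0029). Of 12 lysosomal and autophagy genes known as their targets, 11 were tested. With MAPKi 10 were higher and 1 lower, against 38.4% and 39.8% of all genes. Of the 11, 6 were upregulated, against 16.7% of all genes, and the median was 0.83. GPNMB at 2.83 and CTSD at 2.24 led them, and UVRAG was lower at -0.46. SQSTM1 and CTSB, among the 6 upregulated, have further copies in the table, so that their levels are uncertain. The same holds for NEU1, the gene of this list that was not tested, with 7 further copies. Without glutamine 1 of these 11 was lower with edgeR and 0 were higher, against 8.44% and 9.47% of all genes. The lower gene was GLA at -1.11 (adjusted p = 0.0363). At an unadjusted p under 0.05, 2 were lower and 1 was higher, and likewise with DESeq2. With the replicate block 3 were lower and 2 higher, against 23.8% and 25.2% of all genes, and 1 was downregulated, against 7.84%. MCOLN1, the lysosomal calcium channel, was at 0.02 (adjusted p = 0.945).

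SESN1 is known as a target of p53 and SESN3 as a target of FOXO factors. Among 8 p53 targets, 5 were higher and 2 lower with MAPKi, against 38.4% and 39.8% of all genes. CDKN1A was at 1.03 and GDF15 at -1.80. Without glutamine 4 of these 8 were higher and 0 lower with edgeR, with DESeq2 and at an unadjusted p under 0.05. Over all genes 9.47% were higher and 8.44% lower with edgeR. With the replicate block 5 of the p53 targets were higher and 0 lower, against 25.2% and 23.8% of all genes. CDKN1A was at 1.48 (adjusted p = 0.00925) and GDF15 at 2.45 (adjusted p = 0.000828). Of 8 FOXO factors and targets, 5 were higher and 2 lower with MAPKi, against 38.4% and 39.8% of all genes. PIK3IP1 at 3.05 and IRS2 at 1.25 led the list. Without glutamine 0 of these 8 passed edgeR's test, against 9.47% of all genes higher and 8.44% lower. At an unadjusted p under 0.05, 1 was higher and 1 lower, and 1 was higher with DESeq2. With the replicate block 1 was higher and 2 were lower, against 25.2% and 23.8% of all genes. The part of p53 or FOXO factors in the changes of SESN1 and SESN3 was not tested.

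**Figure D4:**
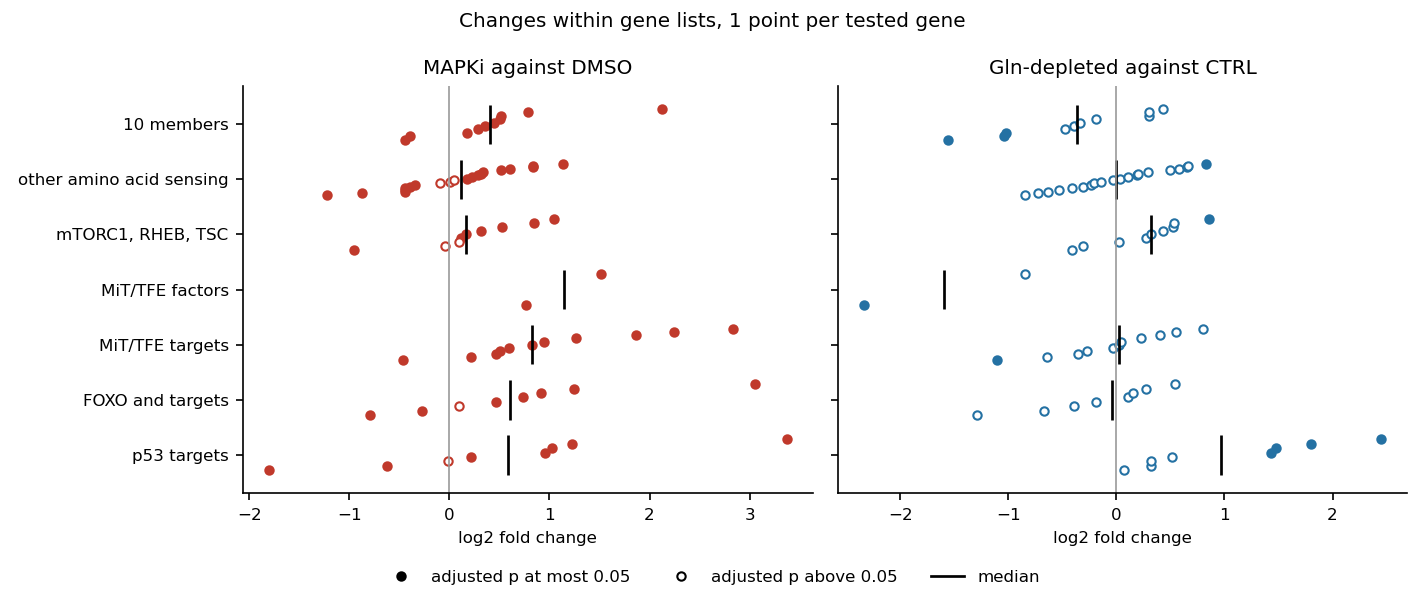
Log2 fold changes of the tested genes of 7 lists (x axis), 1 point per gene, with MAPKi on the left and glutamine depletion on the right; filled points have an adjusted p of at most 0.05 and black lines are list medians. The median of the members is 0.40 with MAPKi and -0.36 without glutamine, and that of MiT/TFE targets is 0.83 and 0.02.

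The genes whose values over the 12 libraries were most like those of the most changed members were sought among 10454 genes, by the Euclidean distance of log2 CPM after subtraction of the control mean of each experiment. For FNIP2 these were PHACTR1 at a distance of 0.72, DNAJC1 at 0.72 and STON2 at 0.88, compared with a median of 4.19 over all genes. Their log2 fold changes were 1.92, 1.88 and 2.08 with MAPKi and -0.33, -0.36 and -0.22 without glutamine. For SESN3 they were DOCK10 at 0.61, TCF4 at 0.64 and TMOD2 at 0.71, compared with a median of 3.32. Their log2 fold changes were 0.34, -0.08 and 0.11 with MAPKi and -1.42, -1.47 and -1.30 without glutamine.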

How the data were processed

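Per the labels and the paper's methods, the authors trimmed reads with fastp 0.20.1, aligned them to GRCh38.p13 with HISAT2 2.2.1 and used htseq-count 0.13.5 for exon reads, and the deposited values are raw counts without normalization. The members, gene lists and rules were chosen with earlier results of these data known. Symbols were matched to RefSeq (36524 by symbol, 524 by an older symbol, 5082 further copies kept apart, 2529 unmatched). For each experiment separately, protein-coding genes whose normalized count averaged 10 or more entered a quasi-likelihood fit (edgeR 4.0.16, R 4.3.3, TMM, with only the treatment as a term), with Benjamini-Hochberg adjustment over all genes tested at 0.05. The limits of 1.5-fold and 10 are those of the study, which used DESeq2 (run here as an alternative, version 1.42.0). Differences between experiments were a contrast over the 12 libraries. Normalized counts are counts divided by TMM-scaled library size, and folds are edgeR estimates.

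Same-numbered libraries deviated together in the glutamine experiment (correlations 0.597, 0.459 and 0.394, and a shared batch in the labels) but hardly with MAPKi (0.072, 0.053 and 0.054). On simulated counts of 12417 genes in the MAPKi design, 97 of 100 genes changed by a log2 fold of 2 and 89 of 100 changed by 1.5 were called against no change, and with 12502 genes in the glutamine design 85 and 72. Against 1.5-fold these were 94 and 84 with MAPKi, and 75 and 32 in the glutamine design. Of the unchanged genes, 19 in the MAPKi design and 7 in the glutamine design were called against no change. The simulated libraries were drawn independently, with the spread of the control libraries and without a shared batch. Smaller changes, such as most members had, were not simulated. Alternatives were DESeq2 and its size factors, other filters and limits, all genes, all 12 libraries, the replicate block, a GC-content spline of 5 degrees of freedom without or with that block, leaving out libraries in turn, and each experimental batch. Permutations and figures used Python 3.11.15, numpy 2.4.6, pandas 2.3.3 and matplotlib 3.10.9. The genes named are the members, the lists and the 3 genes nearest to the most changed member of each experiment, besides MPG, which overlaps NPRL3. Counting on exons that genes share could not be checked.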

Additional observations from a re-analysis of the deposited data

Results flagged for a closer look

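The responses of 5 members differed between the experiments by the test of the difference itself (edgeR's quasi-likelihood test over the 12 libraries), as did those of 40.5% of all genes tested, or 61.1% with the replicate block. On the log2 scale, MAPKi minus glutamine depletion, the differences were 2.65 for FNIP2, 1.87 for RRAGD, 1.79 for SESN3, 1.39 for SESN1 and 0.76 for DEPDC5. RRAGD, SESN1 and SESN3 had passed the test in the separate fit of each experiment and in opposite directions. In the fit of all 12 libraries SESN1 and SESN3 did not pass with MAPKi (adjusted p = 0.0766 and 0.526). Without Gln-depleted replicate 2, none of these genes passed in the glutamine experiment. Sequencing batch and treatment cannot be told apart between the experiments.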

How the results depend on the processing

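With MAPKi the counts of members, 8 higher, 2 lower, 2 upregulated and 0 downregulated, were also those with the replicate block, DESeq2 and each library left out. At an adjusted p of 0.01, 7 were higher. In a fit of all 12 libraries 5 were higher, 0 lower and 1 upregulated, since SESN1, SESN3, NPRL2, NPRL3 and FNIP1 no longer passed the test (adjusted p from 0.0508 to 0.526), and with a log2 threshold of 1, 1 was upregulated. Each MAPKi library deviated most like the DMSO library of its own number, though weakly (correlations 0.072, 0.053 and 0.054). The titles of same-numbered libraries also share a number, without saying what it stands for. For glutamine depletion the replicate block gave 1 higher, 5 lower and 3 downregulated, and with the GC-content correction added 1, 4 and 3. The GC-content correction alone gave 2 downregulated, the fit of all 12 libraries 3, and experimental batch 2 alone, chosen after seeing the data, 2. At an adjusted p of 0.01, 0 were lower. With each library left out, from 0 to 3 were lower and from 0 to 2 downregulated (2 without CTRL replicate 1).

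Of the 5 differences between experiments that had not passed the test, those of NPRL2 (-0.299 to 0.13), NPRL3 (-0.059 to 0.252) and FNIP1 (-0.083 to 0.434) changed sign when libraries were left out, and those of RRAGC and FLCN did not. With the GC-content correction they were -0.297 for NPRL3 and -0.077 for FLCN, and -0.266 and -0.07 with the block added. The cause was not tested. Among the tested log2 fold changes of single members in the glutamine experiment, 7 newly passed the threshold under an alternative and 5 no longer did. Every member had at least 216 reads in every library.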
